A study of Mus musculus with 53 samples.

Results

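Ccl17, Ccl22 and Ccl24 encode 3 secreted CC chemokines, and their transcripts were followed in RNA-seq profiles of bone marrow-derived macrophages (BMDMs) over a time course of IL-4. They were chosen by gene symbol, and each symbol matched 1 of the 23847 loci listed for every sample. All 3 were among the 11146 loci that reached 1 FPKM (fragments for each kilobase of a transcript, relative to all mapped fragments of a sample) in at least 1 sample and were tested. Ccl17 met that limit only through WT samples with 24 h of IL-4, the group where it was highest.

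The products of Ccl17 (CCL17, or TARC) and Ccl22 (CCL22, or MDC) bind the receptor CCR4, which is known for drawing T helper 2 cells and regulatory T cells, and the product of Ccl24 (CCL24, or eotaxin-2) binds CCR3, a receptor of eosinophils. Macrophages and dendritic cells are known to release these chemokines in type 2 immune responses. IL-4 acts through a receptor that contains the IL-4Rα chain, receptor-bound JAK kinases then phosphorylate the transcription factor STAT6, and STAT6 dimers bind DNA.

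Bone marrow cells came from mice aged 8 to 12 weeks that were either WT or lacked Stat6 in the whole body (Stat6-/-), both on a C57BL/6 background, and were differentiated for 6 days with supernatant of L929 cells, a source of macrophage growth factor. BMDMs then received 20 ng/ml of IL-4 for 1, 3, 6 or 24 h or served as controls of the same time without IL-4, and a control at 0 h was also taken. The 53 samples formed 18 groups of 4 WT or 2 Stat6-/- samples, except for 3 WT samples with 24 h of IL-4, whose replicate 1 is not analysed here. The study asked which genes IL-4 regulates in BMDMs and whether this needs STAT6. WT samples were described as individual animals, and the sources used here do not say this of the 2 Stat6-/- samples of a group, so the spread between those may be technical.

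Summed over all loci, FPKM came to 385889 to 464915 per sample, and relative sequencing depth, recovered from low loci, ranged from 0.706 to 1.555 times that of the median sample. No 2 samples held identical values. The targeted gene Stat6 was at 58.69 to 90.62 FPKM in the 35 WT samples and at 14.26 to 24.02 FPKM in the 18 Stat6-/- samples, without overlap. Bulk RNA does not separate the number of cells that make a transcript from the amount per cell, so fewer cells of a type and less RNA per cell cannot be told apart in any value below.

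By the coordinates in the files, on mm10, Ccl22 spans chromosome 8 from 94745684 to 94751388 and Ccl17 lies on the same strand (+), from 94810453 to 94812036, with 59.1 kb between them. Ccl24 lies on chromosome 5 from 135569937 to 135573043 on the minus strand. GENCODE M21 annotates all 3 as protein coding genes, each with 3 exons in its first transcript. RefSeq windows of 250 bases before the start were available here for Ccl17 and Ccl22 and not for Ccl24, whose promoter was therefore not searched. The windows of Ccl17 and Ccl22 were searched for motifs. They are shown on the plus strand from 5′ to 3′, for GRCm38.p6, the assembly that mm10 is built on. GENCODE starts Ccl22 further upstream, at 94745590, so the last 94 bases of its window lie within that gene model and are left out of the 156 bases shown. RefSeq also lists Ccl17 from 94809380, so its window lies within that longer locus. Capitals mark matches to 2 palindromic motifs of the STAT type, TTC and GAA with 4 bases between them, the spacing known for STAT6, and TTCNNNGAA, with 3 bases between them, both searched on both strands.
Ccl17 (chr8:94810203-94810452): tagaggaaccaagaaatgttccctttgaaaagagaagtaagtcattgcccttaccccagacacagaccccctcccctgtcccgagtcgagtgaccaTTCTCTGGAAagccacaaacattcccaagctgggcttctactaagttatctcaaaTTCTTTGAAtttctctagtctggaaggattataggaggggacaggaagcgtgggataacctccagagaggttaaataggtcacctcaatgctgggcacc
Ccl22 (chr8:94745434-94745589): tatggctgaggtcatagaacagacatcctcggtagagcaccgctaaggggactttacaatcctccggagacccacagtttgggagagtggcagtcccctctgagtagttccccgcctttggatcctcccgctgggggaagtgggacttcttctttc

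The Ccl17 window held a match with 4 bases between TTC and GAA at position -154 and TTCTTTGAA at position -99, counted from the start in the files to the first base of the match, and these do not overlap. The Ccl22 window held neither of these motifs, and TATAAA was in neither window. Among 32851 promoter windows of the same length, 5.85% held the motif with 4 bases between, 7.02% held TTCNNNGAA and 12.4% held TATAAA. These matches describe letters in the windows and no binding was measured.

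IL-4 raised all 3 chemokine transcripts in WT BMDMs, on different schedules. Ccl24 rose first, was highest at 6 h and was lower again at 24 h, while Ccl22 and Ccl17 were highest at 24 h. By the ratio of mean FPKM, Ccl24 reached 31.9-fold over its control at 6 h and Ccl22 reached 30.9-fold at 24 h. Ccl17 was listed at 0 in every WT control and reached 1.95 ± 0.20 FPKM (SD, n = 3) in the WT samples with 24 h of IL-4. In the limma test, with a call at a Benjamini-Hochberg adjusted p under 0.05 and an at least 2-fold change on the log2(FPKM + 1) scale, 0 of the 3 were called at 1 h, 1 at 3 h, 2 at 6 h and all 3 at 24 h, each time as higher. Beside these counts, 1.09%, 2.61%, 3.18% and 3.91% of all loci tested were called higher at the same times. The count at 24 h includes Ccl17, which was tested only because of the WT IL-4 samples of that time.

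**Figure D1:**
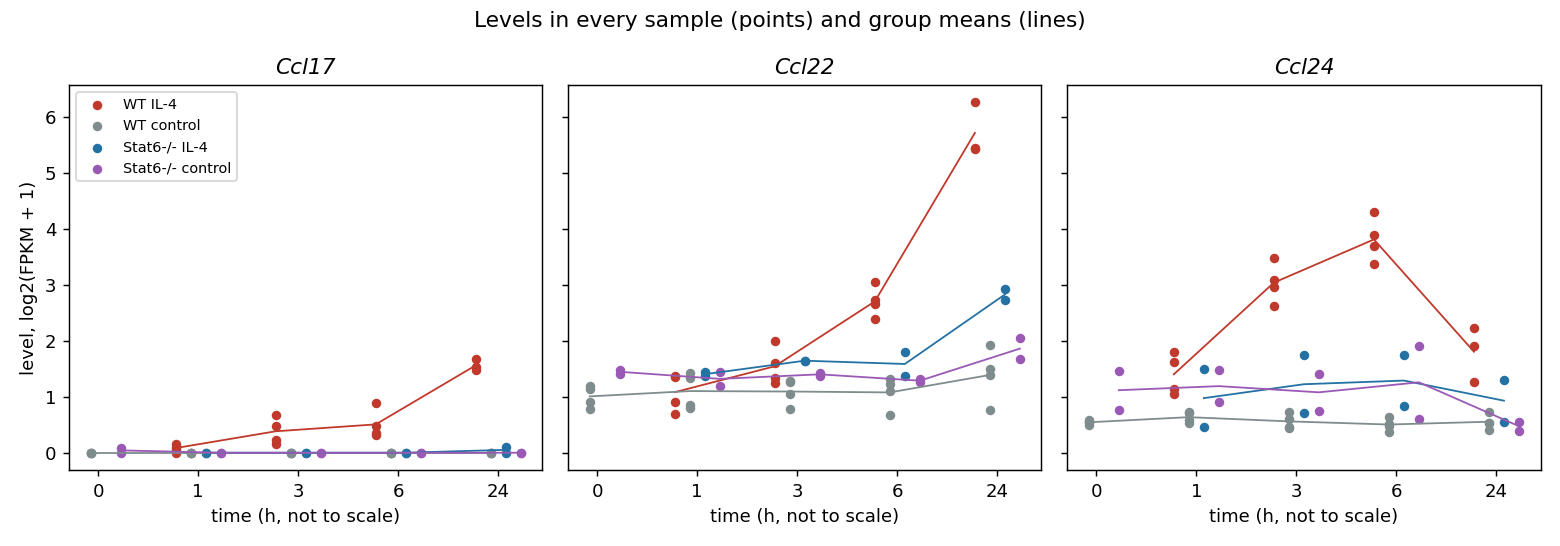
Level of Ccl17, Ccl22 and Ccl24 (y axis, log2(FPKM + 1)) in each of the 53 samples by time (x axis, h, not to scale), with points for samples and lines through group means, coloured by genotype and treatment. The WT IL-4 points of Ccl24 peak at 6 h and those of Ccl22 and Ccl17 at 24 h, and the Ccl17 points of WT controls all lie at 0.

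Ccl24, the ligand of CCR3, was low in the 20 WT controls of all times, with a lowest value of 0.297, a median of 0.452 and a highest value of 0.666 FPKM. With IL-4 for 1 h, the WT samples held 1.21, 1.06, 2.07 and 2.47 FPKM. At 3 h they held 6.82, 5.12, 7.50 and 10.2 FPKM. Every one of these 8 samples lay above every WT control. At 6 h the values were 11.9, 9.29, 18.7 and 13.8 FPKM, and at 24 h they were 1.41, 2.77 and 3.69 FPKM. The 6 h samples were thus the highest, overlapping with those of 3 h, and the 24 h samples lay below all samples of 3 h and overlapped with those of 1 h.

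On the log2(FPKM + 1) scale, the Ccl24 difference between IL-4 and control was 0.76 ± 0.26 (SE) at 1 h, which missed the threshold (limma adjusted p = 0.062) although the groups did not overlap. With a pseudocount of 0.1 the 1 h difference of Ccl24 was 1.39 and was called (limma adjusted p = 0.0336, within a range of 8.21e-05 to 0.368 over the alternatives). The difference was 2.48 ± 0.26 at 3 h (limma adjusted p = 6.04e-10), 3.31 ± 0.26 at 6 h (adjusted p = 2.44e-13) and 1.25 ± 0.29 at 24 h (adjusted p = 0.000339). Ranked from the largest increase among the 11146 loci, Ccl24 was at place 48 at 3 h, 29 at 6 h and 292 at 24 h.

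Ccl22, a ligand of CCR4, was measurable in all 53 samples. In the 20 WT controls its lowest value was 0.591, its median 1.24 and its highest value 2.79 FPKM. With IL-4 the WT samples held 1.60, 1.55, 0.874 and 0.614 FPKM at 1 h and 2.97, 2.04, 1.38 and 1.52 FPKM at 3 h. Both of these groups overlapped with their own controls. At 6 h the values were 7.24, 5.64, 5.29 and 4.23 FPKM, and at 24 h they were 75.5, 42.2 and 42.7 FPKM. The 6 h and the 24 h samples lay above all WT controls, and the 24 h samples lay above all other samples of the series.

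The Ccl22 difference was -0.02 ± 0.20 (SE, log2(FPKM + 1)) at 1 h (limma adjusted p = 0.98) and 0.45 ± 0.20 at 3 h (adjusted p = 0.0981). It was 1.63 ± 0.20 at 6 h (limma adjusted p = 2.2e-08) and 4.32 ± 0.22 at 24 h (adjusted p = 8.16e-19). At 24 h it ranked at place 10 of the 11146 loci, against place 163 at 6 h.

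Ccl17, the other CCR4 ligand, was listed at 0 in 37 of the 53 samples, among them all 20 WT controls. After 1 h of IL-4 the WT samples held 0.0517, 0.0703, 0.118 and 0 FPKM, after 3 h 0.115, 0.390, 0.602 and 0.165 FPKM, and after 6 h 0.271, 0.387, 0.843 and 0.253 FPKM. After 24 h they held 1.89, 1.80 and 2.18 FPKM, above all other samples. The smallest values above 0, multiplied by relative depth, lay between 0.0722 and 0.0826 in 5 samples, a step that may be the worth of 1 fragment. In units of their median, the 1 h values came to at most 2.0 steps and the 24 h values to 21, 28 and 26 steps, so if that step is 1 fragment, the early values rest on few fragments.

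The Ccl17 difference was 0.08 ± 0.08 (SE, log2(FPKM + 1)) at 1 h (limma adjusted p = 0.645), 0.38 ± 0.08 at 3 h (adjusted p = 0.000205) and 0.51 ± 0.08 at 6 h (adjusted p = 1.89e-06). The model pools the spread of all groups, and groups with every Ccl17 value at 0 have none. The SEs and p-values of Ccl17, here and in later limma tests, may thus understate the spread of the IL-4 samples. The differences at 3 and 6 h passed the p threshold, as 16.4% and 22% of all loci did in the higher direction, and not the 2-fold limit. A pseudocount of 1 holds back a gene below 1 FPKM, and with 0.1 these differences were 1.91 and 2.31 and were called (limma adjusted p = 5.57e-07 and 7.77e-09, the smallest over the alternatives, whose highest were 0.0188 and 0.00616). At 24 h the difference was 1.56 ± 0.09 (limma adjusted p = 9e-18). Ccl17 met the 1 FPKM limit only through these WT IL-4 samples, so tests that use them are no separate support. Without that limit the call was kept. Every WT IL-4 sample lay above every control of its time for Ccl17 at 3, 6 and 24 h, for Ccl22 at 6 and 24 h and for Ccl24 at all 4 times, as 8.27%, 20.8%, 23.8% and 27.4% of all loci tested did at 1, 3, 6 and 24 h.

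The change of the WT response from each time to the next was tested in the same model. Ccl24 gained 1.71 ± 0.37 (SE, log2) from 1 to 3 h (limma adjusted p = 0.00123), and its further difference of 0.83 ± 0.37 from 3 to 6 h missed the threshold (adjusted p = 0.326). From 6 to 24 h its response fell by 2.06 on the log2 scale (SE 0.39, limma adjusted p = 7.74e-05). Ccl22 gained 1.18 ± 0.29 from 3 to 6 h (adjusted p = 0.0123) and 2.70 ± 0.30 from 6 to 24 h (adjusted p = 4.67e-09). Ccl17 gained 1.05 ± 0.12 from 6 to 24 h (limma adjusted p = 4.58e-09). Of all loci, 1.61%, 0.449% and 6.06% were called in either direction for the 3 steps, so 1, 1 and 3 of the 3 chemokines stood against those shares. The Ccl17 step fell just under the 2-fold limit without WT replicate 4 with 6 h of IL-4 (0.99), and the 3 to 6 h step of Ccl22 missed the p threshold with a pseudocount of 0.1 (limma adjusted p = 0.0522, within a range of 1.98e-06 to 0.178 over the alternatives).

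Whether the chemokines differed from one another in their response was tested on the difference of their log2(FPKM + 1) values within each sample, IL-4 against control, with a two-sided exact permutation test over 12 comparisons. At 3 h the response of Ccl24 exceeded that of Ccl22 by 2.03 and that of Ccl17 by 2.10, and at 6 h by 1.68 and 2.80. At 24 h the order was turned for Ccl22, whose response exceeded that of Ccl24 by 3.07 and that of Ccl17 by 2.76. The exact p was 0.0286 for each of these comparisons at 3 and 6 h and 0.0571 at 24 h, which are the smallest values that 4 against 4 and 3 against 4 samples allow. After adjustment over the 12 comparisons they were 0.0571 and 0.0857, so none passed 0.05. At 24 h the response of Ccl17 minus that of Ccl24 was 0.31 (exact permutation p = 0.4). The response of Ccl17 minus that of Ccl22 was -0.07 at 3 h (exact permutation p = 0.886) and -1.12 at 6 h (exact permutation p = 0.0286, adjusted 0.0571). Comparisons with Ccl17 depended on the pseudocount. With 0.1, Ccl17 minus Ccl22 turned to 1.19 at 3 h and 0.06 at 6 h, the lead of Ccl22 over Ccl17 at 24 h was 0.60 in place of 2.76, and Ccl17 minus Ccl24 at 24 h was 2.18. The lead of Ccl24 over Ccl22 was then 2.97 at 3 h and 2.43 at 6 h, and that of Ccl22 over Ccl24 at 24 h was 2.78.

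**Figure D2:**
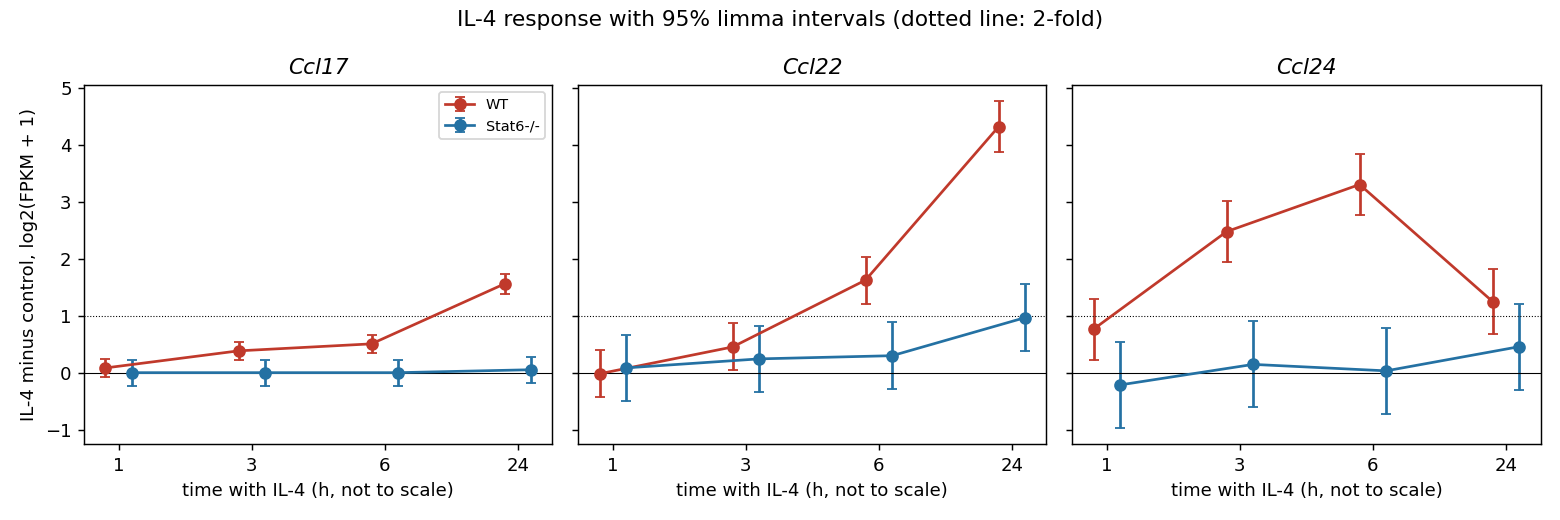
Difference between IL-4 and control (y axis, log2(FPKM + 1)) by time with IL-4 (x axis, h, not to scale) for each chemokine, in WT (red) and Stat6-/- (blue) BMDMs, with bars for the 95% limma interval and a dotted line at 2-fold. The WT response of Ccl22 reaches 4.32 at 24 h and that of Ccl24 3.31 at 6 h, and in Stat6-/- the largest difference is 0.97, of Ccl22 at 24 h.

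Without Stat6, none of the 3 chemokines was called at any time, and neither was any other of the 11146 loci tested (0% at each time). At an unadjusted limma p under 0.05 there were 51, 131, 88 and 37 loci at 1, 3, 6 and 24 h. Each of these counts is lower than chance alone would give at that p, so the test may be conservative in Stat6-/-. The lack of calls there does not show that no response was left. Ccl22 at 24 h was among the 37, and with an analysis of variance and Tukey's adjustment, run for the chemokines alone, none of the 3 was called either. With the replicate number as a block, limma called 1, 1, 1 and 0 loci at 1, 3, 6 and 24 h, none of them Ccl17, Ccl22 or Ccl24. By adjusted p alone, 2, 4, 4 and 1 of the 11146 loci passed 0.05 in that fit. The 1 locus at 24 h was Ccl22 (limma adjusted p = 0.00814).

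Ccl22 was at 2.19 and 3.13 FPKM in the Stat6-/- controls of 24 h and at 6.63 and 5.60 FPKM in the Stat6-/- samples with 24 h of IL-4. Both IL-4 samples thus lay above both controls, with a ratio of means of 2.3. The difference of 0.97 (95% interval 0.383 to 1.55, log2(FPKM + 1)) had an unadjusted limma p of 0.00184 and an adjusted p of 1, and it was at place 8 of the 11146 loci from the highest. Over the alternatives its adjusted p ranged from 0.00814, in limma with the replicate number as a block, to 1, and the blocked difference stayed just under the 2-fold limit. At 3 h the Stat6-/- samples with IL-4 held 2.13 and 2.12 FPKM against 1.58 and 1.70 in controls, and at 6 h 1.58 and 2.49 against 1.40 and 1.48. At 1 h they held 1.71 and 1.58 FPKM against 1.72 and 1.29. Both IL-4 samples of a time lay above both controls for Ccl22 at 3, 6 and 24 h and for Ccl24 at 24 h, as did 7.45%, 8.84%, 7.44% and 4.4% of all loci tested at 1, 3, 6 and 24 h.

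Ccl24 in Stat6-/- BMDMs was at 0.371 and 1.82 FPKM after 1 h of IL-4, 0.628 and 2.35 after 3 h, 0.777 and 2.36 after 6 h and 0.469 and 1.47 after 24 h. The Stat6-/- controls held 0.704 and 1.76 at 0 h, 0.865 and 1.79 at 1 h, 0.678 and 1.66 at 3 h, 0.521 and 2.76 at 6 h and 0.315 and 0.467 FPKM at 24 h. The IL-4 and control samples overlapped at 1, 3 and 6 h, with differences between -0.22 and 0.15 on the log2 scale. At 24 h both IL-4 samples lay above both controls and the difference was 0.46, with an interval from -0.299 to 1.21. Ccl17 was listed at 0 in 16 of the 18 Stat6-/- samples and was at 0.06 and 0.0743 FPKM in the other two, a control of 0 h and a sample with 24 h of IL-4.

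Ccl24 kept an order of replicate numbers in Stat6-/- BMDMs. Replicate 2 was above replicate 1 in 9 of 9 groups. Tppp3, the locus with the highest Pearson's r with Ccl24 over group means, was also higher in replicate 2 in 9 of 9 groups, at 1.25 to 7.29 against 0.325 to 0.805 FPKM. Itgax, the gene of the integrin CD11c, was lower in replicate 2 in all 9, at 2.32 to 3.76 against 9.08 to 37.6 FPKM. The part of this difference between replicates in the Ccl24 values was not tested. For Ccl22, replicate 1 was the higher one in 5 groups and replicate 2 in 4. After 24 h of IL-4 both Stat6-/- values of Ccl22 were above the control of the same number, while Itgax was at 37.4 and 3.08 against 37.6 and 2.32 FPKM.

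**Figure D3:**
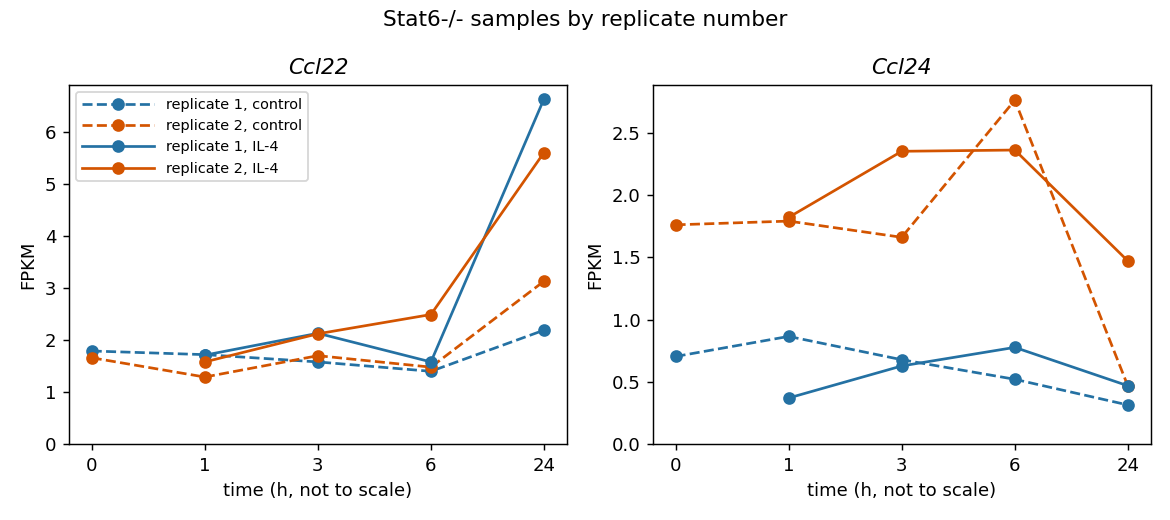
FPKM of Ccl22 and Ccl24 (y axes, linear from 0) in the Stat6-/- samples by time (x axis, h, not to scale), with a colour for each replicate number and dashed lines for controls and solid lines for IL-4. Replicate 2 lies above replicate 1 for Ccl24 in 9 of 9 groups, and both IL-4 samples of Ccl22 at 24 h, 6.63 and 5.60 FPKM, lie above both controls.

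The difference between the WT and the Stat6-/- response was tested directly as an interaction. It was called for Ccl24 at 3 h, at 2.33 ± 0.46 (SE, log2; limma adjusted p = 0.000264), and at 6 h, at 3.28 ± 0.46 (adjusted p = 7.24e-07). For Ccl22 it was 1.33 ± 0.35 at 6 h (limma adjusted p = 0.00622) and 3.36 ± 0.36 at 24 h (adjusted p = 4.91e-09). For Ccl17 it was 1.51 ± 0.14 at 24 h (limma adjusted p = 1.57e-10), with the WT samples through which alone Ccl17 met the 1 FPKM limit. In all, the WT response was called larger for 0, 1, 2 and 2 of the 3 chemokines at 1, 3, 6 and 24 h, against 0.915%, 2.42%, 2.59% and 3.34% of all loci. The 6 h value of Ccl22 lost its call without Stat6-/- replicate 1 with 6 h of IL-4, where it was 1.11 (limma adjusted p = 0.0644), and without replicate 1 of all Stat6-/- groups, where it was 1.13 (adjusted p = 0.138), within a range of 1.43e-06 to 0.138 over the alternatives.

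Ccl24 at 24 h was higher with IL-4 in WT while its interaction of 0.79 ± 0.47 was not called (95% interval -0.157 to 1.74, limma adjusted p = 0.213), so a difference between the genotypes at 24 h was not shown for it. Leaving out replicate 2 of all Stat6-/- groups gave 1.09 with a call (limma adjusted p = 0.0487, within a range of 0.0146 to 0.565 over the alternatives). The Ccl17 interactions at 3 and 6 h were 0.38 and 0.51 (limma adjusted p = 0.0692 and 0.00764), both under the 2-fold limit. By p alone, 9.29% of all loci had a larger WT response at 6 h. With a pseudocount of 0.1 the Ccl17 interactions were 1.91 and 2.31 and were called (limma adjusted p = 0.00479 and 0.000462, the smallest over the alternatives, whose highest were 0.273 and 0.0996).

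In controls, mean Ccl24 in Stat6-/- BMDMs was 2.69, 2.39, 2.43 and 3.89 times that in WT at 0, 1, 3 and 6 h and 0.827 times at 24 h, by the ratio of mean FPKM. For Ccl22 the ratio was between 1.26 and 1.69 at the 5 times. Over the 5 control times the mean difference was 0.46 ± 0.14 (SE, log2; limma adjusted p = 0.0179) for Ccl24 and 0.33 ± 0.11 (adjusted p = 0.0308) for Ccl22. These p-values count the 10 Stat6-/- controls as separate samples, although they carry 2 replicate numbers and Ccl24 was higher in replicate 2 at every time. Both differences passed the p threshold and, on the log2(FPKM + 1) scale, not the 2-fold limit. In the higher direction, 8.03% of all loci passed the p threshold, and 0.287% were called with the limit in either direction. For Ccl24 the difference was 0.80 without replicate 1 and 0.12 without replicate 2 of the Stat6-/- samples, the latter past no threshold (limma adjusted p = 0.518, range over the alternatives 7.78e-06 to 0.518). Leaving out replicate 2 of a single Stat6-/- control group at 0, 1, 3 or 6 h also ended the p call of Ccl24, which did not pass either without WT replicate 1 or 3 (limma adjusted p = 0.072 and 0.0695). For Ccl22 the difference missed the p threshold without either Stat6-/- replicate number and without WT replicate 3 or 4 (limma adjusted p = 0.0723, 0.142, 0.127 and 0.141, range over the alternatives 0.00665 to 0.142), and without any of 6 single Stat6-/- controls (adjusted p up to 0.0815). At 0 h alone, no chemokine passed the p threshold, with differences of 0.57 ± 0.32 for Ccl24, 0.44 ± 0.25 for Ccl22 and 0.04 ± 0.10 for Ccl17, beside 0.35% of all loci called.

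Time in culture without IL-4 was tested as the difference between a later control and the 0 h control of the same genotype, and none of the 3 chemokines was called at any time in limma, nor had any an unadjusted p under 0.05. The largest in WT was 0.38 ± 0.20 for Ccl22 at 24 h (limma adjusted p = 0.196, unadjusted p = 0.0675), and the largest in Stat6-/- was that of Ccl24 at 24 h, at -0.64 ± 0.37 (adjusted p = 0.419, unadjusted p = 0.0932). With the replicate number as a block, both passed the p threshold and not the 2-fold limit (limma adjusted p = 0.00752 and 0.0244). Without replicate 4 of the WT controls of 24 h, the Ccl22 value was 0.59 (limma adjusted p = 0.0487). Of all loci, 0%, 0.00897%, 0.0179% and 1.13% were called at 1, 3, 6 and 24 h in WT, and 0% at 1, 3 and 6 h and 0.161% at 24 h in Stat6-/-.

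WT samples of a replicate number also kept their place. Ccl24 was highest in replicate 4 in 8 of 9 groups and lowest in replicate 2 in 6 of 9. Ccl22 was highest in replicate 1 in 5 of the 8 groups that held it and in replicate 2 in the other 4 groups, and lowest in replicate 4 in 5 and in replicate 3 in 4 of 9 groups. Replicate 3 had the highest Ccl17 value in 3 of the 4 groups in which it was above 0.

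Of the receptor genes on the list, Ccr4 and the decoy receptors were near 0 and Ccr3 was above 1 FPKM in all 53 samples. Ccr4, the gene of the receptor for CCL17 and CCL22, was listed at 0 in 44 of 53 samples and was at most 0.0186 FPKM. The decoy receptor genes listed as Ccbp2 and Ccrl1 were at most 0.043 and 0.133 FPKM. Ccr3, the gene of the CCL24 receptor, was at 1.18 to 6.93 FPKM. Ccr3 was the only receptor gene tested, and its largest difference in WT was -0.72 ± 0.16 at 6 h (limma adjusted p = 0.000367), under the 2-fold limit.

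Of the 12 genes on the list of the IL-4 receptor pathway, all tested, 2, 4, 4 and 2 were called higher in WT at 1, 3, 6 and 24 h. At the same times 0, 0, 1 and 1 were called lower. The shares of all loci were 1.09%, 2.61%, 3.18% and 3.91% called higher and 0.395%, 1.27%, 2.36% and 4.58% called lower. The median differences of the list were 0.07, 0.01, 0.03 and -0.21, against -0.02, 0.01, -0.0002 and -0.07 over all loci tested. The feedback inhibitor genes Socs1 and Cish were higher at every time, with Socs1 at 5.90, 5.83, 5.20 and 3.38 and Cish at 3.96, 4.93, 4.93 and 3.48 on the log2 scale. Il4ra, the gene of the IL-4Rα chain, was higher at 3 h (1.59) and 6 h (1.14) and Jak2, a kinase gene, at the same times (1.70 and 1.76). Il13ra1, the gene of the chain that pairs with IL-4Rα in the IL-13 receptor, fell by 1.34 at 6 h and by 1.19 at 24 h. Il2rg, Jak1, Jak3, Tyk2, Stat6, Socs3 and Ptpn6 were not called at any WT time. In Stat6-/-, where no gene of the list was called, mean Cish was 1.37, 1.71, 1.2 and 0.799 FPKM with IL-4 at 1, 3, 6 and 24 h. In the Stat6-/- controls of these times it was 0.258, 0.467, 0.574 and 0.607 FPKM.

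Irf4 encodes a transcription factor that, with GM-CSF signalling, is known as a regulator of Ccl17. On a list of 6 genes of that route, Csf2 itself was not tested and 1, 1, 3 and 3 of the other 5 were called higher in WT at 1, 3, 6 and 24 h, with none lower, beside 1.09%, 2.61%, 3.18% and 3.91% of all loci called higher. List medians were 0.27, 0.60, 1.12 and 1.00. Irf4 was higher by 2.92, 3.68, 3.72 and 2.94 on the log2 scale. Csf2rb and Csf2rb2, which encode GM-CSF receptor chains or their close relative, were higher by 1.50 at 6 h and 1.34 at 24 h and, for Csf2rb2, by 1.00 at 24 h, a value at the limit that fell to 0.93 with quantile normalization. Reads shared between these similar genes could not be separated here. Kdm6b, the gene of a histone demethylase, was higher by 1.12 at 6 h, and Csf2ra was not called.

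Of 20 other CC chemokine genes, 11 were tested, and 1, 2, 3 and 3 were called higher and 0, 1, 0 and 0 lower at 1, 3, 6 and 24 h in WT. The shares of all loci at these times were 1.09%, 2.61%, 3.18% and 3.91% higher and 0.395%, 1.27%, 2.36% and 4.58% lower. The list medians were -0.11, -0.19, -0.07 and 0.20. Ccl7, a monocyte chemoattractant gene, was higher by 5.14, 5.42, 5.58 and 3.90 on the log2 scale, and Ccl2, a gene of the same kind, by 2.76 at 3 h, 3.35 at 6 h and 3.58 at 24 h. Ccl8 was higher at 24 h by 2.80 ± 1.14 and Ccl12 at 6 h by 2.84 ± 1.12 (SE), and Ccl3 was lower at 3 h by 1.01. The standard errors of Ccl7, Ccl2, Ccl8 and Ccl12, from 1.03 to 1.36, were more than 3 times those of Ccl17, Ccl22 and Ccl24.

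**Figure D4:**
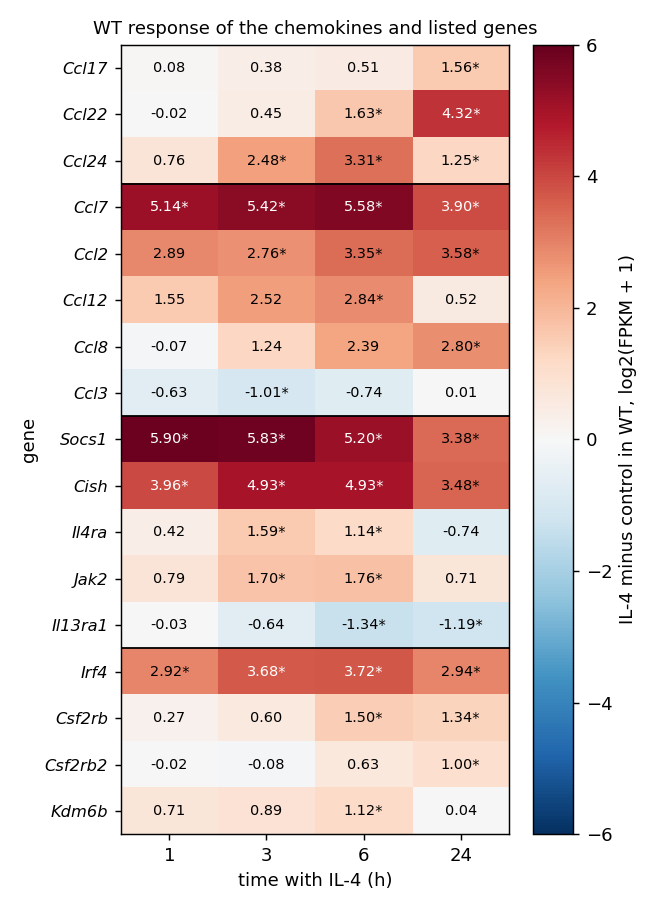
Difference between IL-4 and control in WT (colour and printed value, log2(FPKM + 1)) by time with IL-4 (x axis, h) for the 3 chemokines and, below each line, the called genes of the lists of other CC chemokines, the IL-4 receptor pathway and the GM-CSF and IRF4 route, with an asterisk for a call. Irf4, Ccl7, Socs1 and Cish carry an asterisk at all 4 times, while Ccl22 carries it at 6 and 24 h and Ccl17 at 24 h.

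Within 250 kb of the 3 genes lay 28 other loci, of which 17 were tested. The only one called in WT was Por, the gene of cytochrome P450 reductase, which lies on the Ccl24 side and fell by 1.13 at 3 h and by 1.60 at 6 h. Cx3cl1, the chemokine gene 28 kb from Ccl17 and 20.8 kb from Ccl22, and Ccl26, the chemokine gene 6.4 kb from Ccl24, were below 1 FPKM in every sample and were not tested, as were Pllp and Ccdc102a. Ciapin1, Coq9, Polr2c, Dok4, Arl2bp, Rspry1, Hip1 and Rhbdd2, the tested loci within 100 kb, were not called at any WT time.

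The loci whose levels were most like those of each chemokine were taken by Pearson's r over the 18 group means of log2(FPKM + 1), which share samples and few high groups, so that r is a description. For Ccl17 these were Ear11 (0.99), Map2 (0.985), Tnfaip8l3 (0.984), Ptrf (0.974) and Hr (0.974). For Ccl22 they were Itgax (0.98), Sphk1 (0.976), Rras2 (0.972), Agpat3 (0.967) and F7 (0.965). For Ccl24 they were Tppp3 (0.978), Cltc (0.961), Prps1 (0.953), Elp2 (0.952) and Cd164 (0.948). These lists depended on the measure. By Spearman's rho, 0, 0 and 1 of the 5 loci of Ccl17, Ccl22 and Ccl24 were again among the 5 highest, and by Pearson's r over the 53 samples 4, 1 and 1 were. Among the chemokines themselves r was 0.913 for Ccl17 with Ccl22, 0.498 for Ccl17 with Ccl24 and 0.364 for Ccl22 with Ccl24. Spearman's rho over the same means gave another order, at 0.493, 0.655 and 0.412. Ear11 was at 52.0 ± 16.3 FPKM (SD, n = 3) and Itgax at 240 ± 42.1 FPKM in WT with 24 h of IL-4, against 4.78 ± 1.97 and 17.4 ± 3.39 FPKM at 6 h (n = 4). Tppp3 was at 18.9 ± 1.97 FPKM at 6 h (n = 4) and 2.95 ± 0.52 FPKM at 24 h (n = 3).

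Macrophage markers were abundant and, apart from neutrophil markers, markers of other cells were mostly near 0. All 8 macrophage genes with a locus reached 1 FPKM, with Csf1r at 610 to 1080 and Cd68 at 780 to 1680 FPKM in the 53 samples, and Lyz2 was listed at 0 in 7 of them. In WT with 24 h of IL-4, Emr1, Mertk and Fcgr1 fell by 1.20, 1.89 and 2.34 on the log2 scale. These 3 of the 8 were called lower, beside 4.58% of all loci. Of 9 dendritic cell markers, 2 reached 1 FPKM, and the defining genes Flt3 and Zbtb46 were at most 0.678 and 0.702 FPKM. Of the 2 tested, Ccr7 was not called at any WT time, with -0.51 at 24 h (limma adjusted p = 0.299). In WT at 24 h mean Zbtb46 was higher with IL-4, at 0.308 against 0.0791 FPKM. The means of Flt3, Dpp4, Cd209a, Btla, Xcr1 and Kit were lower there, all below 1 FPKM. The summed level of the 9 markers was 9.28 to 18.3 FPKM in WT controls of 24 h and 209 to 290 FPKM with IL-4. Itgax at 208 to 288 FPKM made up most of it, a rise that was called at 6 h (1.69) and 24 h (4.64) as for Ccl22. Its part in the Ccl22 and Ccl17 values was not tested. In Stat6-/- with IL-4 the sum was 8.6 to 42 FPKM.

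Of 6 T cell markers, Cd3e, Cd3g, Cd8a and Lck stayed below 1 FPKM and Cd4 fell in WT at 24 h by 2.67 on the log2 scale. Of 4 B cell markers, Cd79b reached 1 FPKM and fell by 1.07 at 24 h. The 4 stromal markers stayed below 1 FPKM, and of 4 epithelial markers only Cdh1 reached it and was called higher in WT at 3, 6 and 24 h. Of 8 eosinophil, basophil and mast cell markers 4 were tested and none was called in WT with IL-4, and Epx was at most 0.201 FPKM. The neutrophil markers summed to 195 to 287 FPKM in WT with 24 h of IL-4. In the WT controls of that time the sum was 404 to 550 FPKM. Of the 5 tested, 2 were called lower in WT at 24 h, beside 4.58% of all loci. Over controls of all times the neutrophil sum was 269 to 550 FPKM in WT and 514 to 963 FPKM in Stat6-/-. The part of these other markers in the chemokine values was not tested.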

How the data were processed

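RNA-seq of polyadenylated RNA from 53 BMDM samples was analysed from 1 table per sample. Per the labels and the study's methods, the authors mapped the reads to mm10 with TopHat2 (version 2.0.7) and computed FPKM with Cufflinks (version 2.0.2), and the FPKM values were used as deposited. FPKM is relative to the mapped fragments of a sample, so a change in abundant genes shifts all others. Fragment counts are not part of these values, so single values carry no counting interval. Values that differed from 0 only by rounding (4316) were set to 0. Relative depth came from ratios of equal low values between samples.

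Groups were read from the sample labels. Values were transformed as log2(FPKM + 1), which understates changes of low genes, and fitted with a mean per group over all 53 samples in limma 3.58.1 (intensity trend, 35 residual degrees of freedom, R 4.3.3). The tests were two-sided, with Benjamini-Hochberg adjustment over the 11146 loci with at least 1 FPKM in a sample, within each contrast. A call needed an adjusted p under 0.05 and an at least 2-fold change. Differences between chemokines used exact permutation tests (scipy 1.17.1). The scripts were tested on simulated data. Alternatives were a pseudocount of 0.1, other filters, quantile normalization, a common sum without the 10 most abundant loci, only the groups compared, an analysis of variance with Tukey's adjustment, a replicate block and leaving out samples. Leaving out a replicate number in all groups of a genotype was chosen after seeing the data.

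The chemokines and the lists (receptors, IL-4 receptor pathway, GM-CSF and IRF4 route, other CC chemokines, neighbours within 250 kb and cell type markers) were chosen with earlier results of these data known. Named genes were the 3 chemokines, Stat6, the genes of the first 3 lists, up to 3 increases and 3 decreases of the other CC chemokines, neighbours within 100 kb, the 5 loci most alike each chemokine and the markers. Por and Ccl8, outside this rule, were named after their values were seen.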

Additional observations from a re-analysis of the deposited data

Results flagged for a closer look

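The response to IL-4 differed between WT and Stat6-/- BMDMs, by the limma interaction test, in 5 of the 12 comparisons of a chemokine at a time. The WT response was larger by 2.33 for Ccl24 at 3 h, 3.28 for Ccl24 at 6 h, 1.33 for Ccl22 at 6 h, 3.36 for Ccl22 at 24 h and 1.51 for Ccl17 at 24 h on the log2(FPKM + 1) scale. The Ccl17 value uses the WT samples through which alone that gene met the 1 FPKM limit. Within groups of 4 WT samples, no sample stood apart from the others of its group by Dixon's criterion. This was looked at in the 19 combinations of a chemokine and a group of 4 WT samples that had any spread. The 3 WT samples with 24 h of IL-4 were not looked at. Their Ccl22 values were 75.5, 42.2 and 42.7 FPKM, 1 of them well above the others. Chance alone would mark about 0.95 of these combinations, which share samples.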

How the results depend on the processing

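Over the alternatives, 1550 values of the chemokines kept their direction and their side of the call, 7 gained a call, 7 lost one and 47 changed sign, none of which had been called. With a pseudocount of 0.1, calls were gained by Ccl24 in WT at 1 h (1.394), by Ccl17 in WT at 3 h (1.905) and 6 h (2.308), by the Ccl17 interactions at these times (1.905 and 2.308) and by the step of Ccl17 from 1 to 3 h (1.281), and the step of Ccl22 from 3 to 6 h lost its call (1.531). That pseudocount also turned Ccl17 minus Ccl22 to 1.192 at 3 h and 0.0642 at 6 h, and raised the loci called in WT from 166, 433, 617 and 947 to 245, 649, 931 and 1522 at 1, 3, 6 and 24 h. A common sum without the 10 most abundant loci turned Ccl22 in WT at 1 h to 0.0288. Leaving out samples gave these ranges for values whose sign or call changed. The step of Ccl22 from 3 to 6 h ranged from 1.04 to 1.324, with its call lost without WT replicate 2 or 3 in all groups, and that of Ccl17 from 6 to 24 h from 0.9401 (without WT replicate 4 in all groups) to 1.218. The interaction of Ccl22 at 6 h ranged from 1.111 to 1.546 and that of Ccl24 at 24 h from 0.4175 to 1.169. Uncalled values ranged in WT from -0.121 to 0.1109 for Ccl22 at 1 h, -0.227 to 0.02691 for its interaction at 1 h and -0.002101 to 0.2221 for the step of Ccl17 from 3 to 6 h. Ccl17 minus Ccl22 ranged from -0.00666 to 0.2053 at 1 h and -0.2644 to 0.1554 at 3 h. In WT controls against 0 h, Ccl22 ranged from -0.01363 to 0.1971 at 1 h and -0.009208 to 0.2065 at 6 h, and Ccl24 from -0.04238 to 0.05341 at 3 h, -0.08761 to 0.003096 at 6 h and -0.04997 to 0.05672 at 24 h. In Stat6-/- controls against 0 h, Ccl22 ranged from -0.1098 to 0.02331 at 3 h, and Ccl24 from -0.2747 to 0.4204 at 1 h, -0.3859 to 0.3092 at 3 h and -0.5118 to 0.793 at 6 h. In Stat6-/- with IL-4, Ccl22 ranged from -0.03959 to 0.2075 at 1 h, and Ccl24 from -0.7343 to 0.304 at 1 h, -0.3751 to 0.6656 at 3 h and -0.6204 to 0.6844 at 6 h. The cause of these changes was not tested. Where 1 Stat6-/- sample was left in a group, it was assumed to vary like the other groups. A replicate block changed no call of the chemokines. It gave Ccl22 in Stat6-/- at 24 h an adjusted p of 0.00814 at the same difference of 0.97, under the 2-fold limit. In WT at 24 h it moved the loci called from 947 to 989. The numbers are not stated to mark the same animal across groups. Deviations of same-numbered samples correlated at 0.223 on average in WT, from -0.145 to 0.572, and at 0.714 in Stat6-/-. No block could be fitted to the difference between genotypes in controls, whose numbers are nested in genotype, and Tukey's adjustment gave no value for interactions or steps. Depth may limit the Ccl17 values before 24 h, which lie within few steps of the smallest values above 0.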
